A study of Mus musculus with 5 samples.

Results

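Regions tagged by an antibody to Pou4f1 were examined at 10 genes of secreted signalling in the embryonic mouse retina. Of these, 4 encode factors grouped here as ganglion cell signals (Shh, Gdf11, Mstn and Vegfa), and 6 encode the receiving side of the Hedgehog pathway (Ptch1, Smo, Gli1, Gli2, Gli3 and Hhip). The members are all regions of the deposited table that overlap the body of a listed gene or lie within 50 kb of it, with genes taken from GENCODE M21 on mm10. For the listed genes, set with earlier results of these data known, the choice among called regions used position only, not the signal. It gave 9 of the 8038 regions, with 1 near a ganglion cell signal and 8 near Hedgehog receivers. The libraries were made by CUT&Tag, in which an antibody directs a transposase to the chromatin where its target sits, from wild-type retinas at E16.5. Each library came from 4 pooled retinas, so no value belongs to a single embryo, and all mice were kept on a mixed genetic background. Rabbit anti-Pou4f1 and rabbit IgG, the negative control, had 2 libraries each and were compared here, and the 1 library of rabbit anti-H3K9AC was not analysed here. Whole retina was used, so the signal cannot be assigned to a cell type.

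Pou4f1 is a POU-domain transcription factor of differentiating retinal ganglion cells (RGCs), the output neurons of the retina. Sonic hedgehog, made by newborn RGCs, acts on retinal progenitors. It binds the receptor Patched, which then stops holding back Smoothened, and the signal reaches the nucleus through the Gli zinc finger factors. Gdf11 and myostatin are TGF-beta family ligands that limit the production of new cells, and Vegfa directs the growth of blood vessels.

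The strongest regions of the set were an intronic one in Gli2, which encodes a main transcriptional effector of Hedgehog signalling, and one just upstream of Mstn, the myostatin gene. Both are shown by 300 bases of the plus strand of GRCm38.p6, the assembly of mm10, because they carry the largest Pou4f1 signals. The motif searched was the POU4 type, spelled ATNAATAAT or ATNAATTAT on either strand, with N for any base. In Gli2, the last 300 bases of the region (chr1:118881171-118881470) hold a full match, in capitals, which lies 470 bp from the centre of the region.

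Gli2, intron 3: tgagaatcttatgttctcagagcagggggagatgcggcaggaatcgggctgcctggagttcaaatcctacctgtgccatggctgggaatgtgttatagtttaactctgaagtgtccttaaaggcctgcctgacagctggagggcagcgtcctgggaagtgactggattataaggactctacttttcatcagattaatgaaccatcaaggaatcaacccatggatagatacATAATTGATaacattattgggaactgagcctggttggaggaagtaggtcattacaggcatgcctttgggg

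At Mstn, the central 300 bases of the region (chr1:53060291-53060590) hold no full match. The capitals mark a stretch in which 1 of the 8 fixed letters differs from the motif, and other stretches of the window come equally close.

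Mstn, upstream: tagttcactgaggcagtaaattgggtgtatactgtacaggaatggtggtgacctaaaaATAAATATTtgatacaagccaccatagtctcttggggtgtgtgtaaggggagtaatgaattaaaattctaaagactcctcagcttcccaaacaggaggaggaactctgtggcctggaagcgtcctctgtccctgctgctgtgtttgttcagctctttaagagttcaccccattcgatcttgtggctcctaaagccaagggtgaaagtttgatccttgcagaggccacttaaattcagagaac

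The values are the authors' signal, a scaled coverage averaged over the region, not read counts. No source used here states the depth of the libraries. Signal times length came out as whole multiples of a step particular to the library for 99.98% to 100% of regions, by library (tolerance 0.05 steps). The commonest low value above 0 in either IgG library was 160 steps (887 and 871 regions). The median signal of all regions was 184 and 155 in Pou4f1 replicates 1 and 2, beside 4.78 in the column headed IgG and 7.96 in Negative8. The latter was taken as the other IgG library because the study has no other negative control, and neither carries a replicate number. IgG was listed at 0 in 46.2% and 43.2% of regions. The groups were compared with limma after taking log2(signal + 1), over all regions, with Benjamini-Hochberg adjustment and a threshold of 0.05. An exact permutation test of 2 libraries against 2 cannot go below p = 0.333 (two-sided), so it was not used.

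Pou4f1 exceeded IgG past the threshold in 5 of the 9 regions, and in 64.8% of all 8038. The 5 are the region upstream of Mstn, the one in the first exon of Smo and 3 of the 4 in Gli2. None of the 9 passed as lower by limma, where 0.224% of all regions did. In 8 of the 9 regions the lower Pou4f1 value exceeded the higher IgG value, against 96.5% of all. The reverse order held in the remaining region, downstream of Hhip, and in 1.46% of all. The median log2 difference was 4.28 over the 9 regions and 5.22 over all. The authors called the regions from the Pou4f1 signal with IgG as the control. An excess over IgG is thus in part fixed by that choice, and the limma calls are no independent test of it. With the values divided by the column totals, the median of all regions shifted by -2.48 and 1 of the 9 regions remained past the threshold as higher. The totals were 1.76e+06 and 1.66e+06 for Pou4f1, beside 88179 for IgG and 120664 for Negative8. They sum the called regions only, so they hold the Pou4f1 excess and do not measure depth. Dividing by them removes part of that excess by construction.

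**Figure D1:**
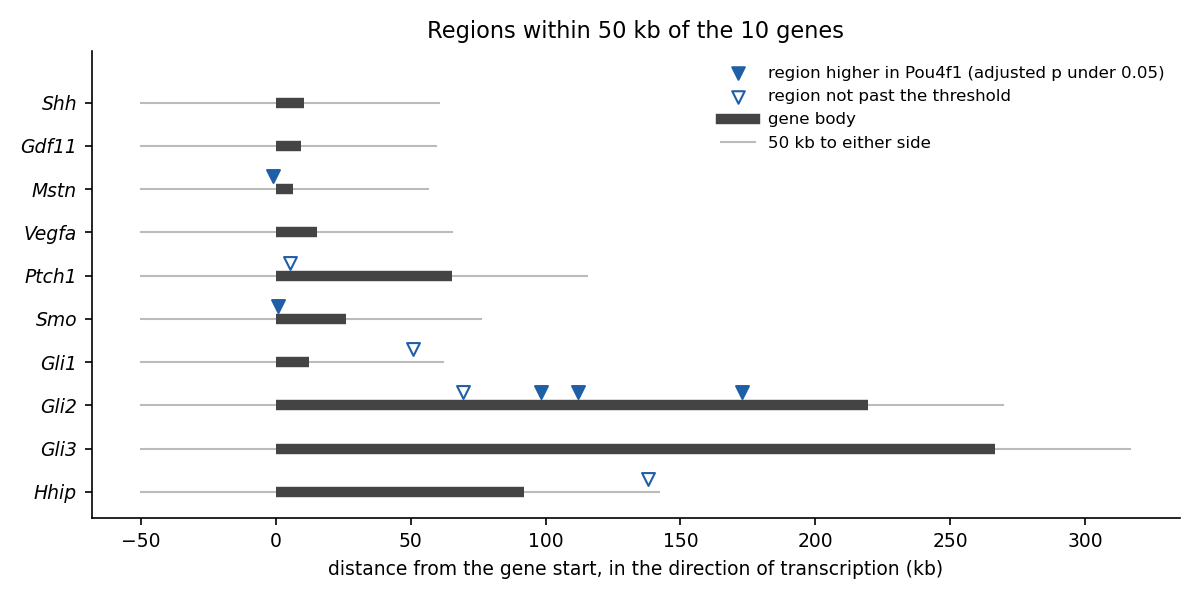
Position of the 9 regions (triangles) along the 10 genes, in kb from the gene start in the direction of transcription. Dark bars are gene bodies and grey lines the 50 kb to either side. Shh, Gdf11, Vegfa and Gli3 have no triangle, Gli2 has 4, and filled triangles mark the 5 regions higher in Pou4f1.

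Of the ganglion cell signals, Mstn alone had a region within 50 kb. Mstn (ENSMUSG00000026100.6) occupies chromosome 1 from 53061640 to 53068079 (plus strand). Its region, from 53060000 to 53060880, ends 760 bp before the gene and is intergenic, with its midpoint 1200 bp from the start. Pou4f1 replicate 1 had a signal of 394 and replicate 2 of 583, beside 6.92 for IgG and 0 for Negative8. Every Pou4f1 value was thus far above every IgG value, and the region ranked 370 of 8038 by mean Pou4f1 signal. The IgG signal of 6.92 is 80 steps, the smallest size above 0 among the IgG values of the 9 regions. On the log2 scale Pou4f1 exceeded IgG by 7.42 (SE 1.25, adjusted p = 0.0203), or 2.20 more than the median of all regions. Leaving out either Pou4f1 library, after which the IgG pair alone gives the spread, ended the call (adjusted p = 0.245 without replicate 1 and 0.252 without replicate 2). The region passed in 6 of the 12 alternatives, and with column totals the adjusted p was 0.416. The passes include the fits without IgG or Negative8, in which the Pou4f1 pairs of all regions give a shared spread. They also include a fit on the 8036 regions with a summed signal of 50 or more, nearly the same as the main one.

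The other ligands lay farther from any region. The table lists called regions only, so a gene without one has no value here, and its signal may still be above IgG. Shh (ENSMUSG00000002633.4, chromosome 5, 28456815 to 28467256, minus strand) was 139 kb from the nearest region. That region covers the start of Rbm33, where Pou4f1 had 135 and 119 and IgG 0 in each library (adjusted p = 0.00222). Vegfa (ENSMUSG00000023951.17, chromosome 17, 46016993 to 46032369, minus strand) was 128 kb from the nearest, which covers the start of Gtpbp2. Its signal was 171 and 94.2 against 0 and 16.9 (adjusted p = 0.0737). For Gdf11 (ENSMUSG00000025352.6, chromosome 10, 128882295 to 128891718, minus strand) the distance was 76.4 kb, to the start of Dnajc14. There the signal was 157 and 71.3 against 23.7 and 0 (adjusted p = 0.108). All of these nearest regions sit on the start of another gene.

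Ptch1 (ENSMUSG00000021466.12) encodes the Hedgehog receptor and is itself a target of the pathway. It occupies chromosome 13 from 63508328 to 63573598 (minus strand). A region from 63567689 to 63568724 lies inside the gene, 5392 bp from the outermost start and 2471 bp from the nearest start of a Ptch1 transcript. It overlaps no Ptch1 exon, and 366 of its 1036 bp are exon of A930032L01Rik, a transcript whose start it covers. Pou4f1 gave 159 and 130, IgG gave 0 and Negative8 gave 54.5. The groups did not overlap, but the IgG values were farther apart than in the other Hedgehog gene bodies. The difference of 4.28 on the log2 scale (SE 2.32) missed the threshold (adjusted p = 0.163). With either IgG library left out, here and at the other regions, only the Pou4f1 pairs give the spread, so that a disagreement within the IgG pair no longer counts. In these fits the adjusted p of the 9 regions followed the size of the log2 difference alone. The spread was thus shared over all regions, and the agreement of a region's own Pou4f1 pair did not enter. The log2 difference of the Ptch1 region was 7.18 with Negative8 left out and 1.38 with IgG left out.

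Smo (ENSMUSG00000001761.7) encodes Smoothened, the membrane protein that carries the signal inward once Patched lets it go. It occupies chromosome 6 from 29735503 to 29761365 (plus strand). Its region, from 29735726 to 29736601, covers part of the first exon, with 343 bp in coding sequence and 285 bp in the untranslated part, and its midpoint is 660 bp from the gene start. Pou4f1 gave 138 and 59.4, and IgG was at 0 throughout (adjusted p = 0.00529). This was the lowest Pou4f1 signal among the 5 regions past the threshold, at rank 6777 of 8038, and replicate 2 was 0.431 of replicate 1. No fold is given, since IgG was listed at 0. The IgG pair thus had no spread, and the call was kept in all 12 alternatives. Not all of these could move it, since multiplying IgG by 2 or 4 leaves values of 0 unchanged. In those fits, and in those without IgG or Negative8, the log2 difference stayed at 6.52 by construction.

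The Gli genes encode the transcription factors at the end of the pathway, and they differed in their number of regions. Gli1, a target that rises with pathway activity, had 1 region within 50 kb, Gli2 had 4 and Gli3, which acts mainly as a repressor, had 0. Gli2 (ENSMUSG00000048402.14, chromosome 1, 118834132 to 119053619, minus strand) spans 219 kb and Gli3 (ENSMUSG00000021318.15, chromosome 13, 15463235 to 15730026, plus strand) spans 267 kb. Among the 998 protein-coding genes of at least 200 kb, 56 had 4 or more regions in the body (5.61%) and 371 had none (37.2%). For Gli3 the nearest region was 850 kb away, on the start shared by Mrpl32 and Psma2.

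The regions of Gli2 overlap no exon of any annotated transcript and spread over 103 kb between the outer midpoints. The most 3′ one, from 118880400 to 118881470 in intron 3 of the transcript ENSMUST00000062483.14 and 173 kb from the gene start, is shown above. This region lies 102 kb from the nearest start of a Gli2 transcript. Pou4f1 gave 428 and 557 there, beside 11.4 for IgG and 0 for Negative8. This was the highest Pou4f1 signal of the 9 regions, at rank 356 of 8038. The excess was 7.12 on the log2 scale (SE 1.49, adjusted p = 0.0309), or 1.90 more than the median of all regions. It passed in 6 of the 12 alternatives, and not when replicate 1 (adjusted p = 0.295) or 2 (0.290) of Pou4f1 was left out.

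The other Gli2 regions lie in intron 2 and had lower Pou4f1 signal. From 118941113 to 118941868, Pou4f1 gave 225 and 219 and the IgG pair 47.9 and 13.9. This region lies 112 kb from the gene start and 41.1 kb from the nearest start of a Gli2 transcript. The excess of 3.05 (SE 0.77, adjusted p = 0.0432) changed sign, to -0.94, with column totals, which do not measure depth. This call too ended when replicate 1 (adjusted p = 0.315) or 2 (0.298) of Pou4f1 was left out. Its IgG signal, with a mean of 30.9, was among the top 6.16% of all regions.

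From 118954448 to 118955995, Pou4f1 gave 186 and 252 and the IgG pair 21.7 and 22.7. This region lies 98.4 kb from the gene start and 27.4 kb from the nearest start of a Gli2 transcript. It is about 1 kb from the start of the microRNA gene Mir6346. Of the regions with IgG above 0 in both libraries, this had the closest IgG values, and the region remained past the threshold when any 1 library was left out (adjusted p from 1.01e-05 to 0.0195). The excess of 3.23 (SE 0.41, adjusted p = 0.0110) changed sign, to -0.76, with column totals. From 118983904 to 118984711, 69.3 kb from the outermost start and 1719 bp from the start of another Gli2 transcript, the signal was 138 and 153 against 23.5 and 0. This region missed the threshold (excess 4.89, SE 1.86, adjusted p = 0.0857). It passed only in 3 of the 12 alternatives, a pseudocount of 10 and the fits without IgG or Negative8. In the last 2 the Pou4f1 pairs of all regions give a shared spread.

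**Figure D2:**
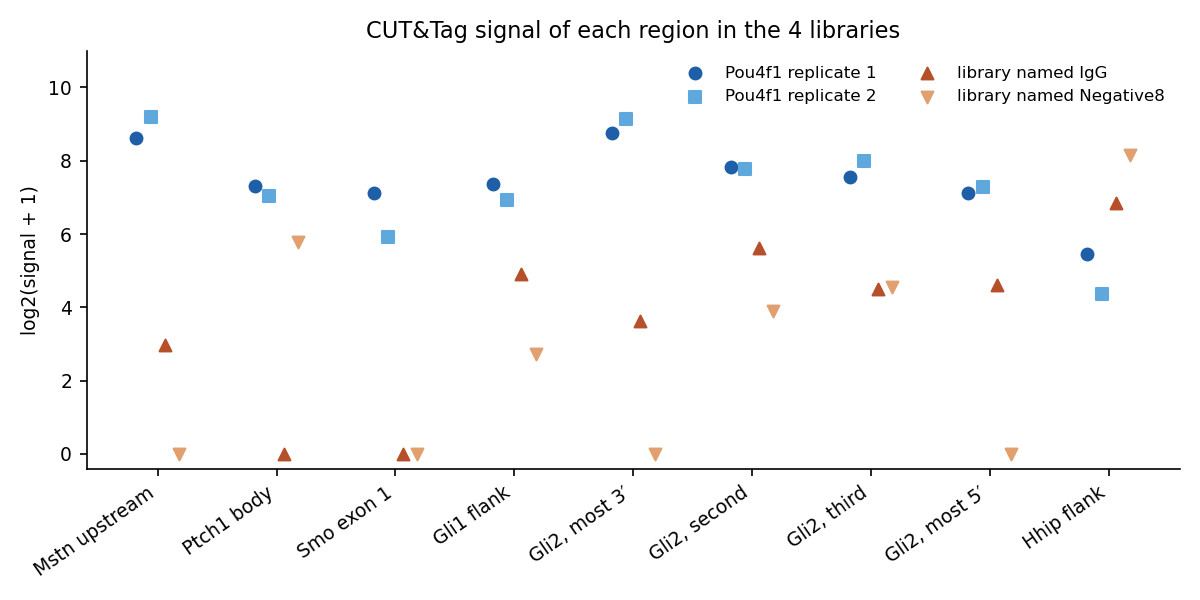
Signal of the 9 regions on the scale log2(signal + 1), with 1 point per library. The Pou4f1 points lie above the IgG points in 8 regions and below them in the Hhip flank, and Smo has 0 in both IgG libraries.

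The region near Gli1 (ENSMUSG00000025407.7, chromosome 10, 127329882 to 127341974, minus strand) lies beyond the gene's 3′ end. It runs from 127290508 to 127291765, 38.1 kb past the gene, and covers the start of Ddit3, a transcription factor of the stress response. Pou4f1 gave 163 and 122, beside 28.8 for IgG and 5.65 for Negative8. The values did not overlap, but the excess of 3.33 (SE 0.95) missed the threshold (adjusted p = 0.0522) and changed sign, to -0.58, with column totals. It passed in 3 of the 12 alternatives, a pseudocount of 10 and the fits without IgG or Negative8, in which the Pou4f1 pair alone gives the spread.

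The region near Hhip, which encodes a membrane protein that binds and sequesters Hedgehog ligands, ran the other way. Hhip (ENSMUSG00000064325.4) occupies chromosome 8 from 79965851 to 80058006 (minus strand), and the region from 79919543 to 79920811 is intergenic, 45.0 kb past its 3′ end. Pou4f1 gave 43.0 and 19.6, beside 115 for IgG and 282 for Negative8. Both IgG values thus lay above both Pou4f1 values, and the mean IgG signal ranked 26 of 8038. The difference of -2.59 (SE 0.77, adjusted p = 0.0558) ranked 8033 of 8038. It kept its sign in all 12 alternatives and passed as lower in 7. The 7 include IgG multiplied by 2 or 4 and column totals, which lower the difference of any region with IgG above 0 by construction. In those fits the regions lower among all 8038 rose from 18 to 44, 88 and 164. Also among the 7 are the 2 fits without IgG or Negative8, in which the Pou4f1 pairs of all regions give a shared spread. No base of the region was soft-masked as repeat in the assembly.

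**Figure D3:**
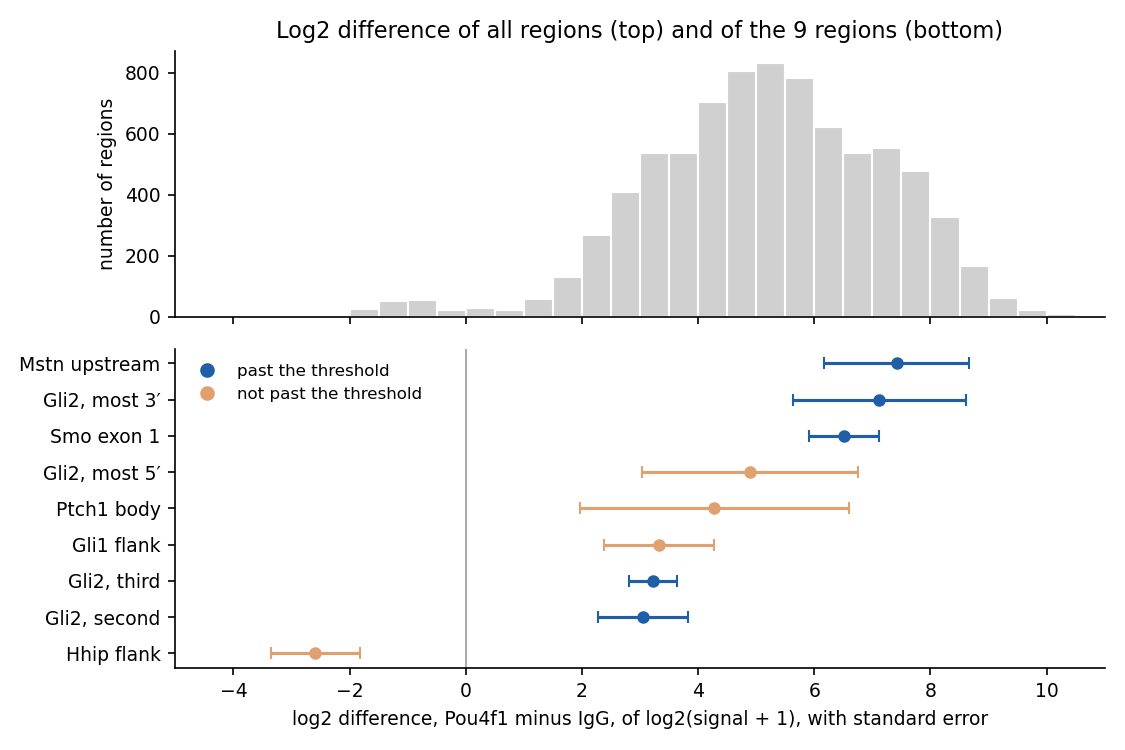
Log2 difference between Pou4f1 and IgG for all 8038 regions, as a histogram (top), and for the 9 regions with their standard errors (bottom). Mstn, the most 3′ Gli2 region and Smo lie above the median of 5.22, and the Hhip flank at -2.59 is the only region below 0. Values with IgG listed at 0 depend most on the added 1. These are Smo, with both IgG libraries at 0, and Mstn, Ptch1 and the most 3′ and most 5′ Gli2 regions. With pseudocounts of 0.1 and 10, Mstn gave 9.16 and 5.23 and Smo gave 9.82 and 3.34.

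Signals and receivers were compared by count. Within 50 kb, 1 of the 4 ganglion cell signals and 5 of the 6 Hedgehog receivers had a region, against 53.1% of the 21938 protein-coding genes. Counting only regions that overlap the gene body, these were 0 of 4 and 3 of 6, against 27.8%. Within 10 kb they were 1 of 4 and 3 of 6, against 34.97%, and within 100 kb 2 of 4 and 5 of 6, against 65.5%. The receivers include the longest genes of the list, and a longer body takes in more regions, so the classes are not alike in length. The single Mstn region had a log2 difference of 7.42, and the 8 receiver regions had a median of 3.81. With 1 region on one side, no test was made.

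**Figure D4:**
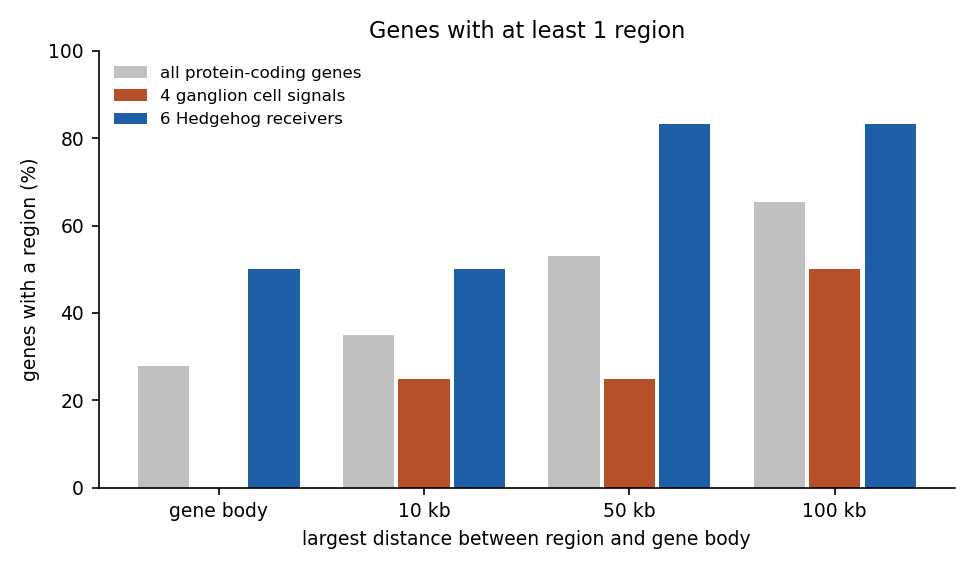
Share of genes with at least 1 region, by the largest distance allowed between region and gene body, for all 21938 protein-coding genes, the 4 ganglion cell signals and the 6 Hedgehog receivers. The bars of the signals stay below those of all genes at each distance and those of the receivers above.

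The replicates did not differ in the same direction in all regions. Replicate 2 was above replicate 1 in 4 of the 9 regions, namely Mstn and 3 in Gli2, with ratios of 1.11 to 1.48. In all regions more than 1 kb from an annotated start the median ratio was 1.16, and within 1 kb it was 0.701. The 3 members within 1 kb of a start of any gene, at Ptch1, Smo and the Ddit3 start near Gli1, had ratios of 0.815, 0.431 and 0.745. With 1 library per replicate this difference has no test. GC content ran from 43.4% at Mstn to 68.8% at Smo, beside medians of 49.0% for all regions away from a start and 62.7% for those near one.

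A full POU motif was found in the central 300 bp of 0 of the 9 regions. It was present in 9.99% of the 8028 regions on chromosomes and in 24.6% of the 2881 that lie more than 1 kb from a start. In whole regions it was found in 1 of the 9, the most 3′ Gli2 region. The shares were 18.7% of all regions and 42.3% of those more than 1 kb from a start, as this one is. A search added after the data were seen let 1 letter of 8 differ. The central 300 bp then held a match in 3 of the 9 regions, against 23.6% of all. All 3 lie more than 1 kb from a start, and the share among such regions was not counted for this search. The 3 are Mstn, shown above, and the Gli2 regions 112 and 69.3 kb from the gene start. The last 2 are shown with 10 bases to either side, on the plus strand, with a near match in capitals, because it lies in the central 300 bp. Each also holds an unmarked stretch that is equally close.

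Gli2, 112 kb (chr1:118941445-118941473): cacccctcagATGTATAATgaatcaggca

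Gli2, 69.3 kb (chr1:118984217-118984245): cattcattagCTAATTAATtagttaaagc

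The octamer ATGCAAAT, another sequence bound by POU factors, was in the central 300 bp of 0 of the 9 regions and 1.25% of all. The Gli consensus GACCACCCA was in 0 of the 9 and 0.199% of all. No match says only that these letters are not in the window.

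Other genes of the same pathways were taken as 7 lists of 48 genes in all, of which 39 had a region within 50 kb. Their 62 regions included 33 higher in Pou4f1 (53.2%, against 64.8% of all regions) and 0 lower by limma (against 0.224% of all). In all 62 the lower Pou4f1 value exceeded the higher IgG value, as it did in 96.5% of all regions. The median log2 difference was 4.75. Of the 26 regions near the other Hedgehog transducers, 12 were higher. Gsk3b, a kinase that phosphorylates Gli proteins, had the strongest named region, over its start, where Pou4f1 gave 992 and 789 and the IgG pair 8.85 and 17.6 (adjusted p = 0.00485). Its rank by Pou4f1 signal was 39. Evc2, which acts with Smoothened at the primary cilium, had a region inside the gene, with 424 and 721 against 36.3 and 5.30 (adjusted p = 0.0331). This region lies 80.2 kb from the outermost start and 2870 bp from the start of another Evc2 transcript. Prkaca, a catalytic subunit of protein kinase A, had one over its start with 412 and 237 against 4.21 and 23.1 (adjusted p = 0.0306).

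Near the other receptors and co-receptors, 2 of 5 regions were higher. They lie over the starts of Cdon, a co-receptor for Shh, with 341 and 137 against 11.5 and 20.03 (adjusted p = 0.0252), and of Lrp2, with 110 and 83.6 against 15.7 and 6.02 (adjusted p = 0.0289). Among ligands and their release 4 of 6 were higher. Of these, the region over the start of Scube1, a secreted factor of Hedgehog release, had 126 and 18.6 against 0 and 0 (adjusted p = 0.0284), with replicate 2 well below replicate 1. Those named for Dhh and Scube3 cover the starts of Rhebl1 and Zfp523, with 143 and 52.4 against 0 in both IgG libraries (adjusted p = 0.00707) and 103 and 69.2 against 23.1 and 13.9 (adjusted p = 0.0387). All 3 regions near Hedgehog target genes were higher, but none lay within 10 kb of its gene.

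For the other ligands, 5 of the 9 regions near receptors and effectors of Gdf11 and myostatin were higher. They include the starts of Smad2, with 276 and 136 against 9.35 and 16.4 (adjusted p = 0.0184), and Smad4, with 175 and 96.2 against 14.4 and 8.54 (adjusted p = 0.0197). Smad2 and Smad4 carry the signal of these ligands to the nucleus. Near their extracellular inhibitors 4 of 8 were higher, and the one named for Wfikkn1 covers the start of Mettl26 (88.0 and 59.3 against 0 in both IgG libraries, adjusted p = 0.00289). Near the Vegfa receptors 3 of 5 were higher. In Nrp2, a co-receptor also bound by semaphorins, a region 99.8 kb from the start had 352 and 577 in Pou4f1, with IgG at 0 (adjusted p = 0.00222). In that region, as at Mstn, Evc2 and the most 3′ Gli2 region, replicate 2 was the higher.

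**Figure D5:**
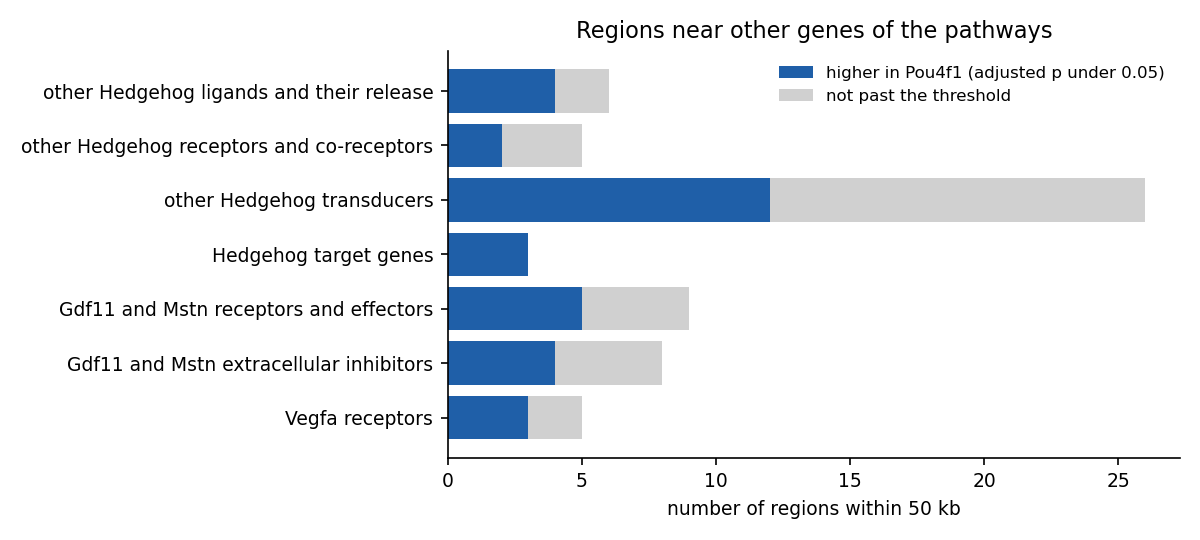
Number of regions within 50 kb of the genes of 7 pathway lists, split into those higher in Pou4f1 and those not past the threshold. The other Hedgehog transducers hold 26 of the 62 regions, and 12 of them were higher.

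Regions with the values most like those of the most 3′ Gli2 region, by Euclidean distance over the 4 libraries on the log2(signal + 1) scale, had Tenm4 (distance 0.20), Tesc (0.21) and Rcn1 (0.22) as the gene with the nearest protein-coding start. The likeness rests on 4 values and describes them only.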

How the data were processed

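The regions are SEACR calls at its relaxed setting, made by the authors from Bowtie2 2.4.5 alignments to mm10, with IgG as the control. Adaptors and low-quality or low-complexity bases had been removed or masked beforehand. The authors deposited 1 signal value per region and library. Its averaging and scaling, any removal of duplicates and whether replicates were pooled for calling are stated in no source used here. Starts are counted from 0 in the deposited table and from 1 here. Pou4f1 (n = 2) was compared with IgG (n = 2) with limma 3.58.1 (R 4.3.3), after taking log2(signal + 1), without covariates, scaling or filter on low values. The fit and the adjustment covered all 8038 regions. The model was tested on simulated data in which every region had the same spread. In the real data 3516 regions had 1 IgG library at 0 and the other above it, which the simulation did not imitate. Because 1 was added, changes of low regions are understated. Libraries of 1 group are separate samples in the labels, and nothing says that they came from separate litters, so the spread may be technical. Distances run from the region's edge to the gene body, or from its midpoint to a start. Sequence came from GRCm38.p6. Python 3.11.15, pandas 2.3.3, pysam 0.24.0 and matplotlib 3.10.9 were used.

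The members and gene lists were chosen with earlier results of these data known. All 10 genes and their regions were named. From each other list, at most 3 genes with a region past the threshold within 10 kb were named, by mean Pou4f1 signal.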

Additional observations from a re-analysis of the deposited data

How the results depend on the processing

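No paired analysis was possible because the columns of the IgG libraries carry no replicate number. For the members higher in Pou4f1 (5), the other pathway regions higher (33), all regions higher (5205) and all lower (18), IgG taken as 2 times shallower gave 2, 17, 2949 and 44. As 4 times shallower it gave 1, 12, 2152 and 88, and column totals gave 1, 10, 1821 and 164. Of the calls made with column totals 91.7% were higher. A pseudocount of 0.1 gave 2 members, 22 other pathway regions and 3492 of all regions (43.4%) higher, and 6 lower. One of 10 gave 7 members, 57 other pathway regions and 7443 of all regions (92.6%) higher, and 41 lower. A trend of spread on level gave 34 regions lower, and a 2-fold threshold gave 1. Leaving out 1 library, after which the other group's pair alone gives the spread, gave 2 to 8 members higher, 12 to 61 other pathway regions, 2360 to 7710 regions higher and 7 to 63 lower. Without IgG or Negative8 that spread was shared over all regions and did not reflect a region's own pair. With column totals the log2 difference of Gli1 (-0.58) and of the Gli2 regions 112 kb (-0.94) and 98.4 kb (-0.76) from the start turned negative. These totals sum the called regions only, so they hold the Pou4f1 excess and do not measure depth. The excess of the Mstn region over the median of the receivers (3.61) was 2.51 with a pseudocount of 10 and ran from 3.001 to 4.75 with 1 library left out. The full POU motif was in 1 member when whole regions were searched, and 3 held it with 1 letter differing. The cause of these moves was not tested. For the other member regions the direction did not change in any alternative. The smallest IgG value above 0 among the members was 80 steps, and no source used here states the depth.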
